A study of Mus musculus with 8 samples.

Results

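The immediate early genes Fos, Fosb, Jun, Junb, Jund, Egr1, Atf3, Ier2 and Dusp1 were measured on 8 expression arrays of mouse olfactory mucosa, where the olfactory sensory neurons lie. All probe sets whose platform annotation gives a single symbol from these 9 genes were taken, whatever their values, which gave 9 of the 8252 genes so annotated and 14 of the 12488 probe sets of the table. A filter on dim signals (at least 2 arrays over an intensity of 362.7) left 11 of the 14 and at least 1 for each gene. The mice had both olfactory bulbs removed, which deprives olfactory neurons of the region they project to, so the carrier-injected wild-type mice were bulbectomized too. There were 4 groups of 2 arrays: C57BL/6 mice injected with carrier, mice labelled Ccl3-/- injected with carrier, C57BL/6 mice injected with CCL3, and mice labelled Ccl3-/- injected with CCL3. CCL3 (MIP-1alpha) is a secreted chemokine that recruits macrophages, among other leukocytes. Dose, interval after surgery and age are not given in the labels, and they do not say whether the arrays of a group came from different animals, so each p-value reflects array-to-array spread alone, and that spread may be technical.

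Immediate early genes are transcribed within minutes of a stimulus, without new protein synthesis, when MAP kinases and other signals switch on factors that already sit at their promoters. Fos and Fosb proteins pair with Jun, Junb or Jund to form the transcription factor AP-1, Egr1 is a zinc finger factor, Atf3 is a stress-induced factor that can pair with Jun proteins, and Dusp1 is a phosphatase that switches MAP kinases off again. Ier2 is a nuclear protein of the same early response. Their transcripts are short-lived. In the olfactory system Fos and Egr1 are widely used as markers of neurons activated by odour, and in many tissues the same genes also respond to injury and to the handling of tissue at dissection.

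The probe set for Ccl3 itself went against the genotype labels, at 159.4 to 386.5 on the 4 wild-type arrays and 727.3 to 812.2 on the 4 arrays labelled Ccl3-/-. The labels do not give the deleted part of the gene, and a probe set outside it checks nothing, so every genotype direction here rests on the labels. The 5 mature olfactory neuron markers looked for and found on the array, among them Omp, each exceeded the filter intensity on at least 1 array, and none of the cell type markers was listed at 0. Median intensity per array was 581.4 to 660.3, and the number of arrays limits the precision. In limma 0 of 8150 probe sets passed an adjusted p of 0.05 in any of the 7 comparisons (121 to 932 were under an unadjusted p of 0.05), so no immediate early gene did, and all differences below are given as values that did not pass over all probe sets. The 3' to 5' ratio of the Gapdh control, a measure of RNA integrity and labelling, was 2.59 on wild-type carrier replicate 1 and 0.755 to 1.31 on the others. The same ratio of the actin control was 1.58 on that array, the lowest of the 8, and 1.61 to 2.17 on the others. The controls thus disagreed on that array. That array was the highest of the 8 for 5 of the 11 probe sets, and the array of Ccl3-/- CCL3 replicate 1 was the lowest for 6. The part of either array's quality in the results was not tested.

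Promoters of Fos, Dusp1 and Jun are shown. Fos and Dusp1 were chosen because they had the lowest differences of the 9 genes for CCL3 on the arrays labelled Ccl3-/-. Jun lay slightly above 0 there. Jund (0.25) and the brighter Junb probe set (0.21) also lay above 0, and the dimmer Junb probe set lay at -0.79. The windows shown therefore do not stand for the other genes. Each line gives the 250 bases before the gene start from RefSeq (GRCm38.p6), 5′ to 3′ on the gene's strand. Capitals mark TGACG or its reverse complement CGTCA, the core of the cAMP response element bound by CREB and ATF proteins. The Fos window is chr12:85473640-85473889 on the plus strand, the Dusp1 window chr17:26508473-26508722 on the minus strand and the Jun window chr4:95052223-95052472 on the minus strand.
Fos: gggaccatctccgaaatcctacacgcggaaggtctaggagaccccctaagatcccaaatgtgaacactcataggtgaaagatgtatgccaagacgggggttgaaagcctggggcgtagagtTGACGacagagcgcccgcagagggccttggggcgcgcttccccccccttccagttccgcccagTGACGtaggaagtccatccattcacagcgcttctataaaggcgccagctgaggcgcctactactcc
Dusp1: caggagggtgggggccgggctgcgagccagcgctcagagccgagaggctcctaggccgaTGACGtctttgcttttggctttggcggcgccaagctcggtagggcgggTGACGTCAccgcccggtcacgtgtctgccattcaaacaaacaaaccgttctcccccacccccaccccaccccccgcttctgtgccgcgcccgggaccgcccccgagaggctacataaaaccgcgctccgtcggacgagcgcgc
Jun: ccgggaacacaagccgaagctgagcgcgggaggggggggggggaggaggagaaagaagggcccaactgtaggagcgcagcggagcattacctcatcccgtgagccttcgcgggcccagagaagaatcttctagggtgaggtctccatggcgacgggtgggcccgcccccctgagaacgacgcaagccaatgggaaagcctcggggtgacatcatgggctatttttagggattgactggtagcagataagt

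The Fos window held the core at 2 places, which begin 129 and 66 bases before the gene start, and the Dusp1 window held it at 3, of which the pair at 143 and 140 bases forms the full palindrome TGACGTCA. These letters were not in the Jun window, which held tgacatca, 1 letter away from TGACGTCA. Of the 9 genes, 7 had a promoter in the RefSeq table, and 5 of the 7 (Fos, Fosb, Junb, Atf3 and Dusp1) held TGACG on either strand, against 17.8% of 32851 promoter windows of the same length. Of these 5, Junb had its brighter probe set above 0 and its dimmer one below 0 for CCL3 on the Ccl3-/- arrays. The full TGACGTCA, which contains the core on both strands, was in 1 of the 7 and in 1.55% of all windows. The AP-1 motif TGACTCA, searched on both strands, was in 0 of the 7 and in 4.46% of all windows. The CArG box, to which serum response factor binds, was in 0 of the 7 and in 1.47%, and the Egr1 motif GCGNGGGCG was in 1 (Fosb) and in 4.7%. A match, or the lack of one, is only a description of the letters in this window, and bases further upstream were not searched.

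Fos, the founding partner of the AP-1 dimer, had its lowest intensities on the CCL3 arrays labelled Ccl3-/-. These were 402.8 and 599.8, against 788.8 and 1613.2 for Ccl3-/- carrier, 1369.6 and 1300.0 for wild-type carrier and 1092.6 and 1230.1 for wild-type CCL3. The CCL3-injected Ccl3-/- pair lay below all 6 other arrays, while the Ccl3-/- carrier arrays were far apart and spanned the range of the wild type. After CCL3 the genotype difference of Fos was -1.08 ± 0.33 on the log2 scale (SE, n = 2 per group; 2.12-fold lower on log2(value + 102.3); adjusted p = 0.99998 in limma). CCL3 against carrier on the Ccl3-/- arrays gave -1.05 ± 0.33 (adjusted p = 0.830), with groups that did not overlap, as for 16% of all probe sets in this direction. This log2 difference was -0.58 without Ccl3-/- carrier replicate 2 and -1.53 without Ccl3-/- carrier replicate 1. The same injection in wild type gave -0.19 ± 0.33, and the difference between these CCL3 effects was -0.87 ± 0.47 (adjusted p = 0.908), so they were not shown to differ. That difference was -0.39 without Ccl3-/- carrier replicate 2 and -1.34 without Ccl3-/- carrier replicate 1. The second Fos probe set, at 22.1 to 167.3, stayed under the filter on all arrays.

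Fosb, a close relative of Fos with the same dimer partners, was lower on the arrays labelled Ccl3-/- after either injection. Wild-type carrier gave 1149.7 and 1478.9 and wild-type CCL3 914.8 and 1226.6. The arrays labelled Ccl3-/- gave 889.0 and 625.4 after carrier and 584.2 and 637.7 after CCL3. All 4 of these lay below all 4 wild-type arrays, a pattern that, over 4 against 4 arrays, 1.88% of the probe sets tested showed in this direction. The genotype difference averaged over both injections was -0.72 ± 0.20 (SE, n = 4 per group; 1.64-fold lower; adjusted p = 0.808 in limma). It was -0.73 ± 0.28 after carrier and -0.71 ± 0.28 after CCL3, with an interaction of 0.02 ± 0.40, whose 95% interval runs from -0.86 to 0.91. The interaction was at -0.019 to -0.066 with quantile, median or cyclic loess scaling.

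Ier2 followed the same order of groups as Fosb. It had 6215.2 and 3883.3 in wild-type carrier, 4147.6 and 5460.1 in wild-type CCL3, 3116.4 and 3800.8 in Ccl3-/- carrier and 2640.5 and 3224.0 in Ccl3-/- CCL3. Again the genotypes did not overlap over the 8 arrays, though the highest Ccl3-/- array and the lowest wild-type array were close. The averaged difference was -0.59 ± 0.21 (SE, n = 4 per group; adjusted p = 0.808 in limma), with -0.50 ± 0.30 after carrier and -0.69 ± 0.30 after CCL3. The value after carrier was -0.17 without wild-type carrier replicate 1, the array with the high Gapdh ratio, and -0.83 without wild-type carrier replicate 2. Neighbouring groups in the order of both genes, wild-type carrier above wild-type CCL3 and Ccl3-/- carrier above Ccl3-/- CCL3, overlapped within a genotype. The gap lay between the genotypes.

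Egr1, the zinc finger factor also known as Zif268, went opposite ways with CCL3 in the genotypes. Its intensity was 543.8 and 530.2 in wild-type carrier and 1315.5 and 966.6 in wild-type CCL3, so it was higher after CCL3. On the arrays labelled Ccl3-/- it was 911.5 and 835.6 after carrier and 554.5 and 781.6 after CCL3, so it was lower. Groups did not overlap in any of the 4 pairwise comparisons. Between genotypes this was so for 38.5% of all probe sets after carrier and 29.4% after CCL3. For CCL3 against carrier it was so for 38.9% on the Ccl3-/- arrays and 30.1% in wild type. The 4 groups followed each other without overlap from wild-type CCL3 down through Ccl3-/- carrier and Ccl3-/- CCL3 to wild-type carrier. The share of all probe sets whose 4 groups follow each other without overlap was not counted. The CCL3 difference was 0.95 ± 0.28 in wild type (SE, n = 2 per group; 1.93-fold higher; adjusted p = 0.911 in limma) and -0.36 ± 0.28 on the Ccl3-/- arrays (adjusted p = 0.967), where it was -0.14 without Ccl3-/- CCL3 replicate 1 and -0.57 without Ccl3-/- CCL3 replicate 2. The interaction was -1.30 ± 0.39 (95% interval -2.17 to -0.43, adjusted p = 0.908), and it ranged from -1.52 to -1.09 when each array was left out in turn. Egr1 was therefore at 0.61 ± 0.28 between genotypes after carrier and at -0.69 ± 0.28 after CCL3. Its second probe set did not pass the filter on any array, with 248.9 and 318.0, 254.0 and 235.8, 157.0 and 136.9, and 24.2 and 169.3 in wild-type carrier, Ccl3-/- carrier, wild-type CCL3 and Ccl3-/- CCL3. In those dim values the wild-type CCL3 arrays lay below the wild-type carrier arrays, opposite to the brighter probe set.

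**Figure D1:**
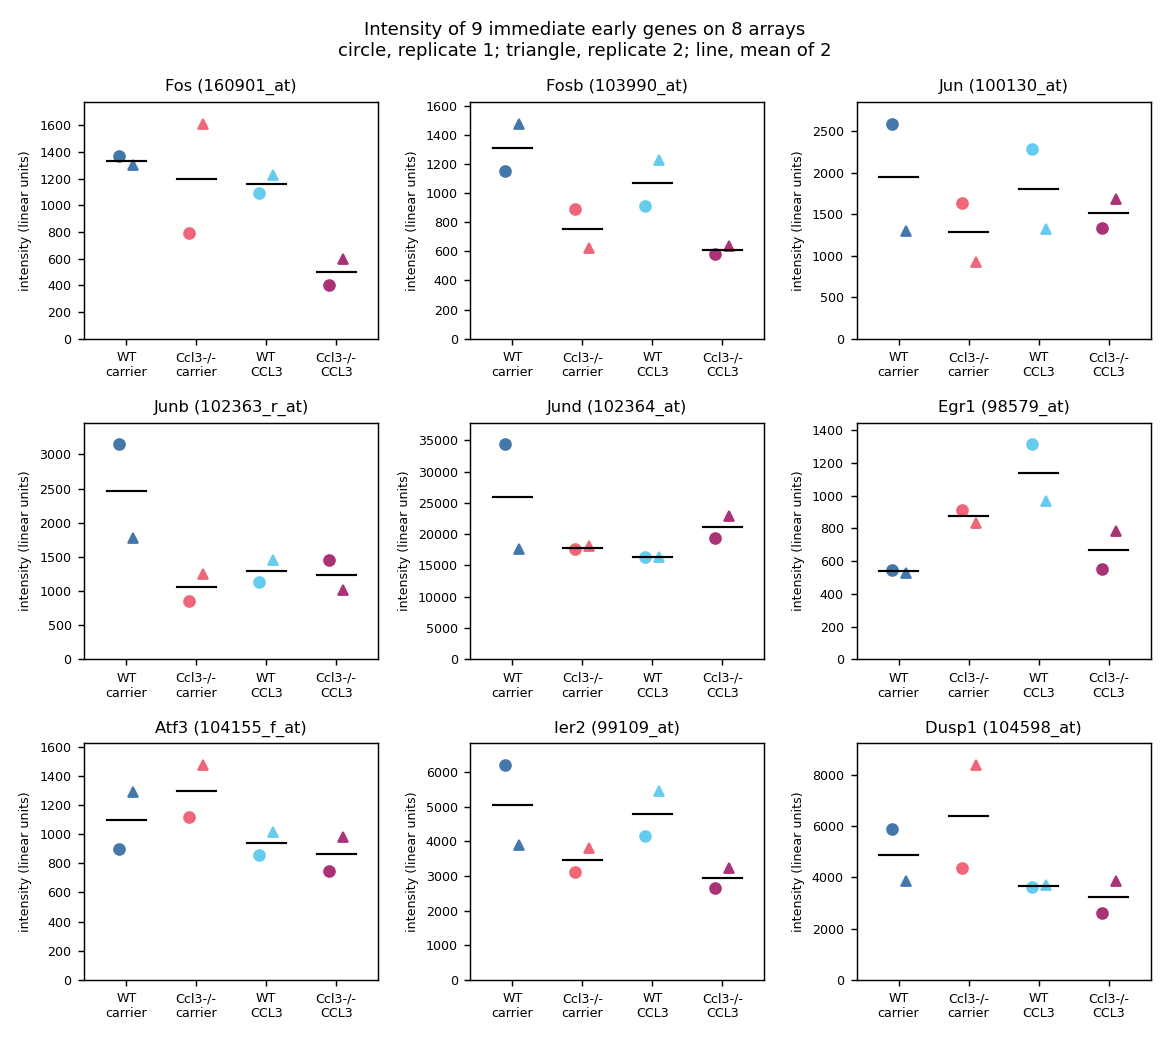
Intensity (linear units, axes from 0) of the brighter probe set that passed the filter for each of the 9 genes, by group; points are single arrays and lines are means of 2 arrays. Fos is lowest on the CCL3 arrays labelled Ccl3-/- (402.8 and 599.8), Fosb and Ier2 separate by genotype, and Egr1 has its highest group mean after CCL3 in wild type and its lowest after carrier in wild type.

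The Jun family, the obligatory partners of Fos proteins in AP-1, showed no common pattern. Jun was at 2592.8 and 1301.1 in wild-type carrier, 1639.4 and 920.6 in Ccl3-/- carrier, 2286.1 and 1316.3 in wild-type CCL3 and 1337.7 and 1681.0 in Ccl3-/- CCL3. Replicates of Jun were as far apart as the groups, and all 4 group pairs overlapped. Its differences in the 4 pairwise comparisons lay between -0.54 and 0.26 with an SE of 0.40. After CCL3 against carrier on the Ccl3-/- arrays it was at 0.26, where Fos was at -1.05.

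Junb had a pair of probe sets designed from the same sequence record, which disagreed in part. The brighter one read 3150.3 and 1773.5 in wild-type carrier, 857.1 and 1249.3 in Ccl3-/- carrier, 1132.7 and 1452.8 in wild-type CCL3 and 1458.9 and 1016.7 in Ccl3-/- CCL3. The other read 3179.6 and 1017.2, 1301.6 and 1337.1, 970.4 and 1051.2, and 631.8 and 818.4 in the same groups. Both had their highest value on wild-type carrier replicate 1, the array with the high Gapdh ratio. The genotype difference after carrier was -1.12 ± 0.34 for the brighter probe set (SE, n = 2 per group; adjusted p = 0.375 in limma), -0.72 without that array and -1.51 without wild-type carrier replicate 2. It was -0.43 ± 0.42 for the other probe set and 0.34 without that array. For CCL3 against carrier in wild type the values were -0.83 ± 0.34 and -0.79 ± 0.42, and without that array -0.44 and -0.0092. Without wild-type carrier replicate 2, which leaves the array with the high ratio alone in its group, the dimmer probe set was at -1.56 and passed over all probe sets (adjusted p = 0.0465). On the Ccl3-/- arrays CCL3 against carrier was 0.21 ± 0.34 for the brighter probe set and -0.79 ± 0.42 for the other, so no direction can be given for Junb there. The correlation of the pair over 8 arrays was 0.64, and -0.29 without wild-type carrier replicate 1.

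Jund, the Jun protein that many resting cells express, read 34410.4 on wild-type carrier replicate 1. The other 7 arrays had 17642.8 in wild-type carrier, 17582.0 and 18052.7 in Ccl3-/- carrier, 16405.2 and 16368.7 in wild-type CCL3 and 19444.0 and 22989.2 in Ccl3-/- CCL3. Apart from that array the replicates of Jund were close. The CCL3 difference was -0.59 ± 0.30 in wild type (SE, n = 2 per group; adjusted p = 0.911 in limma), -0.11 without that array and -1.07 without wild-type carrier replicate 2, and 0.25 ± 0.30 on the Ccl3-/- arrays (adjusted p = 0.997), where it was 0.13 without Ccl3-/- CCL3 replicate 2.

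Dusp1, which dephosphorylates and so inactivates MAP kinases, was highest on the Ccl3-/- carrier replicate 2 array. It was 5863.5 and 3848.6 in wild-type carrier, 4357.6 and 8387.6 in Ccl3-/- carrier, 3607.2 and 3686.5 in wild-type CCL3 and 2592.8 and 3853.4 in Ccl3-/- CCL3. Arrays after CCL3 lay below arrays after carrier in each genotype, by wide margins for some arrays and narrow ones for others. On the Ccl3-/- arrays 16% of all probe sets did so. In wild type 30.1% of all probe sets had groups that did not overlap, in either direction. CCL3 against carrier gave -0.91 ± 0.36 on the Ccl3-/- arrays (SE, n = 2 per group; adjusted p = 0.940 in limma) and -0.37 ± 0.36 in wild type. The former was -0.45 without Ccl3-/- carrier replicate 2 and -1.38 without Ccl3-/- carrier replicate 1. Leaving out wild-type carrier replicate 1 took the latter to -0.076, and leaving out wild-type carrier replicate 2 took it to -0.67.

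Atf3, a stress-induced ATF family member, differed little. Its brightest probe set was 896.6 and 1292.8 in wild-type carrier, 1116.4 and 1477.5 in Ccl3-/- carrier, 860.6 and 1012.6 in wild-type CCL3 and 745.3 and 981.6 in Ccl3-/- CCL3. The Ccl3-/- carrier arrays lay above the Ccl3-/- CCL3 arrays, as for 16% of all probe sets. CCL3 against carrier was at -0.53 ± 0.28 on these arrays (SE, n = 2 per group; adjusted p = 0.940 in limma) and at -0.35 without Ccl3-/- carrier replicate 2. A second probe set, which passed the filter with 4 arrays above the intensity limit, was at -0.21 ± 0.33 there, and the third stayed at 20.5 to 51.9 on all arrays.

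Counted by gene, with the brightest probe set that passed the filter, 4 of the 9 genes were under an unadjusted p of 0.05 in limma for genotype after CCL3 (Fos, Fosb, Egr1 and Ier2, all lower on the arrays labelled Ccl3-/-), where 0.663% of all probe sets tested were lower and 0.822% higher at that p. The count was 0 without Ccl3-/- CCL3 replicate 1, 2 without Ccl3-/- CCL3 replicate 2 and 2 without wild-type CCL3 replicate 2, so it rested on these arrays. For genotype averaged over injections 4 genes were lower (Fos, Fosb, Junb and Ier2), against 2.9% of probe sets lower and 3.03% higher, with 1 left without either wild-type CCL3 replicate 2 or Ccl3-/- carrier replicate 1 and 2 without Ccl3-/- CCL3 replicate 1. After carrier 2 were lower (Fosb and Junb), against 6.4% lower and 5.03% higher. That count was 1 without wild-type carrier replicate 1 or either Ccl3-/- carrier array and 4 without wild-type carrier replicate 2. For CCL3 on the Ccl3-/- arrays 2 were lower (Fos and Dusp1), against 2.12% lower and 2.77% higher, and 0 without Ccl3-/- carrier replicate 2 or Ccl3-/- CCL3 replicate 1. In wild type 1 was higher (Egr1) and 1 lower (Junb), against 1.98% and 2.32%, with 1 of these left without wild-type carrier replicate 1 and 0 without wild-type CCL3 replicate 1. For CCL3 averaged over genotypes 2 were lower (Fos and Dusp1), against 2.17% lower and 2.36% higher. That count ranged from 0 to 4 with each array left out, at 0 without Ccl3-/- carrier replicate 2, wild-type CCL3 replicate 1 or Ccl3-/- CCL3 replicate 1, at 1 without wild-type CCL3 replicate 2 or wild-type carrier replicate 1, and at 4 without wild-type carrier replicate 2. The interaction was under that p for 1 gene (Egr1, negative), against 1.87% negative and 3.19% positive. It was so for 3 without wild-type carrier replicate 2 and for 2 without either Ccl3-/- carrier array or Ccl3-/- CCL3 replicate 2. The comparisons share arrays, so these counts are not independent of each other. The genes were chosen with earlier results of these data known, so the counts against all probe sets are descriptions. Over the 9 genes the median log2 difference was -0.47 for genotype after carrier, -0.20 for genotype after CCL3, -0.25 for CCL3 on the Ccl3-/- arrays and -0.19 for CCL3 in wild type, and over all probe sets -0.026, 0.017, 0.032 and -0.016.

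**Figure D2:**
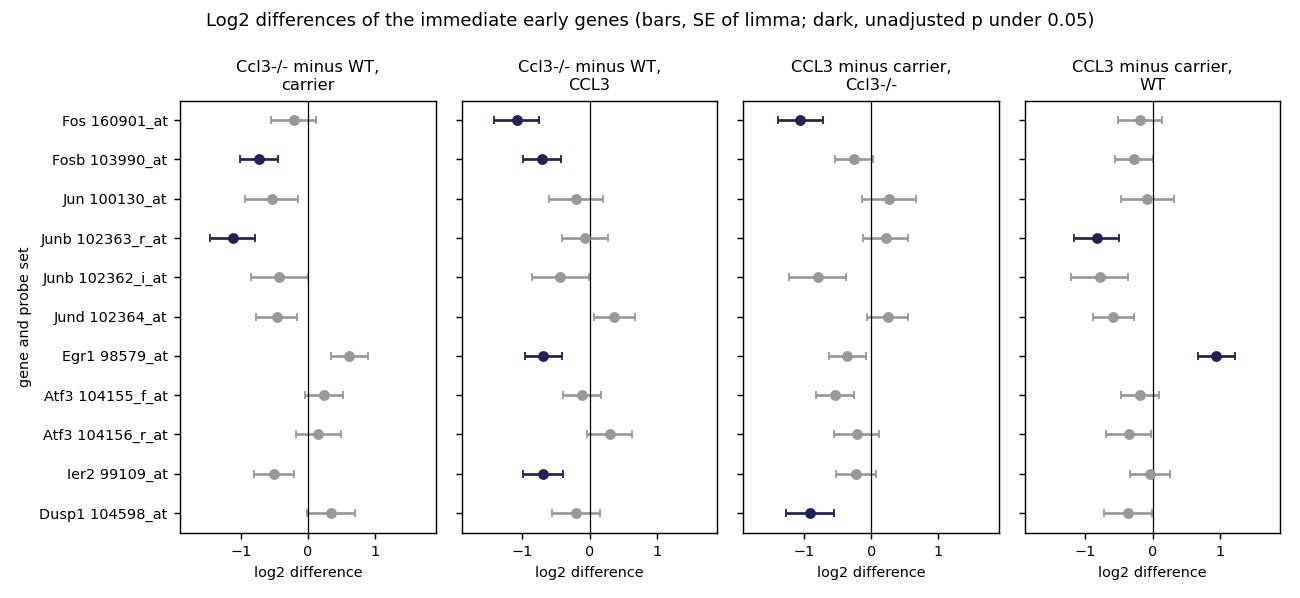
Log2 differences (x axis, log2 units) of the 11 probe sets (y axis) in the 4 pairwise comparisons, with bars for the SE of limma; dark points have an unadjusted p under 0.05. Fos lies near -1 after CCL3 between genotypes (-1.08) and for CCL3 on the arrays labelled Ccl3-/- (-1.05), and Egr1 lies at 0.61 and -0.69 between genotypes after carrier and after CCL3 and at 0.95 for CCL3 in wild type.

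Some pairs of probe sets varied together and others did not. Over the 8 arrays Fos had a Pearson r of 0.75 with Ier2, 0.72 with Dusp1, 0.63 with the brightest Atf3 and the dimmer Junb probe sets and 0.57 with Fosb, but -0.05 with Jun, 0.016 with Jund and 0.15 with Egr1. Without wild-type carrier replicate 1 these were 0.76, 0.69, 0.76 and 0.78, and 0.53, then -0.32 with Jun, -0.62 with Jund and 0.33 with Egr1. The dimmer Atf3 and the brighter Junb probe sets had lower values with Fos, at 0.050 and 0.38 over the 8 arrays. Without that array they had 0.12 and 0.24. Fosb had an r of 0.66 with Ier2 and -0.025 with Dusp1. Some of these values came from a single array: Jund had an r of 0.69 and 0.68 with the Junb probe sets, and -0.24 and -0.49 without wild-type carrier replicate 1. All points share the array and its scaling, and the values are descriptions. In the log2 SD over the 8 arrays, Fos (0.61) and the dimmer Junb probe set (0.64) lay at the 91.6 and 93.4 percentiles of the probe sets tested, and the Atf3 probe sets (0.29 and 0.26) at the 42.2 and 30.1 percentiles.

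Among 7346 probe sets of other genes, the pattern most like Fos over the 8 arrays was that of Wfdc18 (Pearson r = 0.96), a whey acidic protein family gene. Its intensity was 59337 and 49793.6 in wild-type carrier, 23581.3 and 71077.8 in Ccl3-/- carrier, 56245.5 and 47530 in wild-type CCL3 and 12478.8 and 12962.9 in Ccl3-/- CCL3. Like Fos, it was low on the CCL3 arrays labelled Ccl3-/- and split between the carrier arrays so labelled. Next came the heat shock protein gene Hspa4 (0.94), Mrtfa, a coactivator of serum response factor (0.93), the leukocyte receptor gene Pirb (0.92) and the clathrin light chain gene Cltb (0.92). For Egr1 the list was led by Lrrfip1 (0.92), which read 764.7 and 750.4 in wild-type carrier, 1143.9 and 985.7 in Ccl3-/- carrier, 1135 and 1025.3 in wild-type CCL3 and 687.9 and 872.7 in Ccl3-/- CCL3. It was followed by Csad (0.92), the stress granule gene G3bp1 (0.92), Arhgap35 (0.91) and Tfcp2l1 (0.90). With 8 arrays and 7346 candidates these values are descriptions only.

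**Figure D3:**
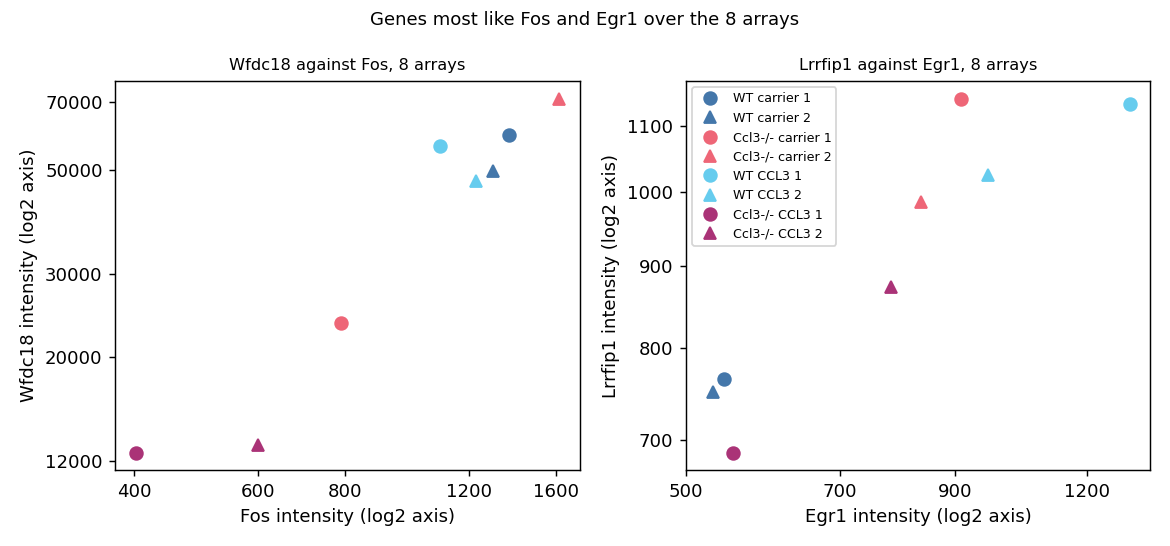
Intensity of Wfdc18 against Fos and of Lrrfip1 against Egr1 on the 8 arrays (both axes on a log2 scale); colours are groups and symbols are replicates. The CCL3 arrays labelled Ccl3-/- sit at the lower left in the Fos plot, and the wild-type carrier arrays sit low in the Egr1 plot.

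Other genes of the early response were on average lower after CCL3 than after carrier on the arrays labelled Ccl3-/-. The 56 such genes listed were chosen with earlier results of these data known, so their counts against all probe sets are descriptions. The array held 44, and 38 of those passed the filter. In that comparison 31 of the 38 had a difference below 0, against 46% of all probe sets, with a median of -0.49, against 0.032 over all probe sets, and 23 of the 38 had groups that did not overlap and were lower, 60.5% against 16% of all probe sets tested. Under an unadjusted p of 0.05 in limma 7 were lower and 0 higher, against 2.12% lower among all. This count was 1 without Ccl3-/- CCL3 replicate 1 and 4 without Ccl3-/- carrier replicate 2, and the count below 0 stayed between 29 and 32 with each array left out. Socs3, an inhibitor of cytokine signalling induced by interleukin 6 family cytokines, had 2194.4 and 3121.4 after carrier and 1036.1 and 1237.8 after CCL3 on these arrays, and 1417.2, 880.0, 1044.7 and 1379.1 in wild type. Only the Ccl3-/- carrier pair of Socs3 stood above the rest. Cebpd, a transcription factor of the acute phase response, had 11143.7 and 19905.2 after carrier and 3361.3 and 4826.7 after CCL3 there, and the wild-type carrier arrays were far apart at 12803.0 and 3015.8. The third gene, Ifrd1, was 2383.9 and 2012.5 after carrier and 785.0 and 1057.2 after CCL3. Their differences were -1.14 ± 0.30, -1.86 ± 0.56 and -1.18 ± 0.37 (SE, n = 2 per group; adjusted p from 0.748 to 0.830 in limma).

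For genotype after carrier 7 of the 38 lay below 0, against 52.1% of all probe sets (median 0.24), 4 were higher and 0 lower at the unadjusted p, against 5.03% higher among all. The 3 with the smallest p were Socs3 (1.16 ± 0.30), Rgs2, a regulator of G protein signalling (1.09 ± 0.34), and Nfkbiz, a regulator of NF-kappaB (0.62 ± 0.24). Leaving out wild-type carrier replicate 2 put 17 below 0, and leaving out Ccl3-/- carrier replicate 2 put 15 there. The count at the unadjusted p was 11 without wild-type carrier replicate 1, 8 without Ccl3-/- carrier replicate 1, 1 without Ccl3-/- carrier replicate 2 and 2 without either Ccl3-/- CCL3 array. The 9 immediate early genes were mixed in that comparison: Egr1 (0.61), Dusp1 (0.34) and Atf3 (0.23) lay above 0 like the list, and Fos, Fosb, Jun, Junb, Jund and Ier2 below 0. The Ccl3-/- carrier arrays enter both this comparison and the CCL3 comparison above. For genotype after CCL3 27 of the 38 lay below 0, against 47.2% (median -0.13), with 0 at the unadjusted p against 1.48% of all probe sets. For CCL3 in wild type 19 lay below 0, against 51.8% (median 0.0027), with 0 at that p against 4.29%. The wild-type counts rested on single arrays, with 10 below 0 without wild-type carrier replicate 1 and 8 at the unadjusted p without wild-type carrier replicate 2. In the interaction 32 of 38 were below 0, against 47.3%, with a median of -0.47 against 0.038 over all probe sets, and 3 were lower at the unadjusted p against 1.87%: Socs3 (-1.23 ± 0.43), Ifrd1 (-1.49 ± 0.53) and Rgs2 (-1.27 ± 0.49). This count was 9 without wild-type carrier replicate 1, 7 without Ccl3-/- carrier replicate 1, 5 without Ccl3-/- CCL3 replicate 2 and 0 without Ccl3-/- CCL3 replicate 1, and 5 with quantile, cyclic loess or median scaling. For CCL3 averaged over genotypes 31 of the 38 lay below 0, against 48.4% of all probe sets (median -0.23). At the unadjusted p 4 were lower, against 2.17% lower among all. Those 4 became 13 without wild-type carrier replicate 2, 9 without Ccl3-/- carrier replicate 1, 2 with median scaling, and 1 without Ccl3-/- carrier replicate 2, wild-type CCL3 replicate 1 or Ccl3-/- CCL3 replicate 1. For genotype averaged over injections 15 of the 38 lay below 0, against 51.6% (median 0.076), and 1 was higher at that p, against 3.03% higher among all. The count at that p became 4 without wild-type carrier replicate 1 or Ccl3-/- carrier replicate 1. It became 0 without wild-type carrier replicate 2 or Ccl3-/- CCL3 replicate 2. Among single genes, Socs3 was at 0.54 ± 0.22 for genotype and -0.52 ± 0.22 for CCL3, Cebpd at -1.23 ± 0.40 for CCL3 and Ccn2, a matrix protein gene, at -1.03 ± 0.38 for CCL3.

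**Figure D4:**
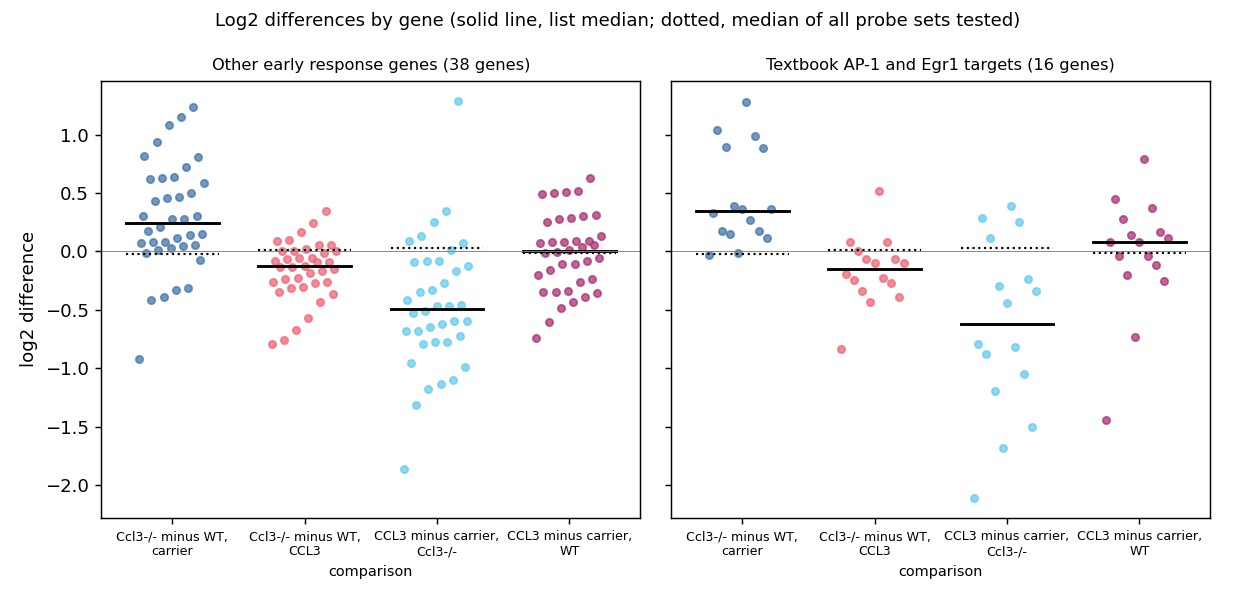
Log2 differences (y axis) of 38 other early response genes and 16 textbook AP-1 and Egr1 targets in the 4 pairwise comparisons (x axis); points are genes, solid lines list medians and dotted lines the median of all probe sets tested. The CCL3 comparison on the arrays labelled Ccl3-/- has list medians of -0.49 and -0.62, and the comparison of genotypes after carrier has 0.24 and 0.35.

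Textbook targets of AP-1 and Egr1 also lay mostly below 0 for CCL3 on the Ccl3-/- arrays. This list too was chosen with earlier results of these data known, so its counts are descriptions. Of 24 listed, the array held 21, and 16 of those passed the filter, and in that comparison 12 of the 16 lay below 0, against 46% of all probe sets (median -0.62), 10 had groups that did not overlap and were lower (62.5% against 16%), and 6 were lower at the unadjusted p, against 2.12%. That count of 6 was 2 without Ccl3-/- carrier replicate 2 and 3 without Ccl3-/- CCL3 replicate 1 or with the filter at the 60th percentile. Mmp13, a collagenase, had 8402.5 and 3480.6 after carrier and 1145.1 and 1208.9 after CCL3, a difference of -2.11 ± 0.57 (SE, n = 2 per group; adjusted p = 0.748 in limma). Timp1, an inhibitor of these proteases, was at -1.05 ± 0.32 and the stromelysin gene Mmp3 at -1.69 ± 0.54. Mmp3 was also at -1.45 ± 0.54 for CCL3 in wild type. Its arrays after CCL3 read 104.3 to 219.1, under the filter intensity. Its carrier replicates were far apart, at 1015.7 and 338 in wild type and 1120.1 and 411 where labelled Ccl3-/-. For genotype after carrier 2 of the 16 lay below 0, against 52.1% (median 0.35), and 2 were higher at the unadjusted p, against 5.03%, Icam1 (0.99 ± 0.39) and Mmp13 (1.28 ± 0.57). The count below 0 was 5 without wild-type carrier replicate 2, 6 without Ccl3-/- carrier replicate 2, 1 without Ccl3-/- carrier replicate 1 and 0 with cyclic loess or median scaling. The count at that p was 0 with the filter at the 60th percentile and 1 with median scaling, the lower pseudocount, the floor, no intensity trend, or without wild-type carrier replicate 2 or either Ccl3-/- carrier array. For genotype after CCL3 12 lay below 0, against 47.2% of all probe sets, and 7 without wild-type CCL3 replicate 2. For CCL3 in wild type 7 lay below 0, against 51.8% of all probe sets. This count was 4 without wild-type carrier replicate 1, 2 without wild-type CCL3 replicate 1 and 11 without wild-type CCL3 replicate 2. Averaged over genotypes, CCL3 gave -1.57 ± 0.38 for Mmp3, -1.42 ± 0.41 for Mmp13 and -0.65 ± 0.23 for Timp1. In the interaction Plaur, the urokinase receptor gene, was at -1.87 ± 0.77 and Icam1 at -1.33 ± 0.56. These were the 2 targets under the unadjusted p there, against 1.87% negative among all. Of them 0 were left with the filter at the 60th percentile or without wild-type CCL3 replicate 2 or Ccl3-/- CCL3 replicate 1. Under the filter intensity were Plaur on both wild-type carrier (351.7 and 166.4) and both Ccl3-/- CCL3 arrays (47.3 and 328.9), and Icam1 on both wild-type carrier arrays (246 and 237.4).

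Among genes upstream of the immediate early genes and among their partner proteins, at most 1 per list and comparison was under the unadjusted p. Of all probe sets 1.48% to 11.4% were under it, depending on the comparison, so these few genes are named as a description. Of 26 MAP kinase cascade and serum response factor genes that passed the filter (33 on the array, 47 listed), medians in the 7 comparisons were -0.069 to 0.012. At the unadjusted p Map3k1, which activates the JNK branch, was at -0.91 ± 0.34 for CCL3 on the Ccl3-/- arrays (SE, n = 2 per group; adjusted p = 0.940 in limma) and at -1.18 ± 0.48 in the interaction. Creb1, which binds the cAMP response element, was at -1.11 ± 0.40 for CCL3 in wild type and at -0.66 ± 0.28 averaged over genotypes. On the wild-type CCL3 arrays Creb1 read 239.6 and 84.7, under the filter intensity. Mknk1 was at 0.67 ± 0.28 for genotype averaged over injections. The 13 bZIP partners and Egr corepressors that passed the filter (15 on the array, 18 listed) had medians of -0.12 to 0.15. Among them Ddit3, a stress-induced partner of C/EBP proteins, was at 1.08 ± 0.35 for CCL3 in wild type and at 0.64 ± 0.25 averaged over genotypes, and the rest were over an unadjusted p of 0.05 in all 7 comparisons. Heat shock genes, of which 11 passed the filter (13 on the array, 15 listed), had medians between -0.17 and 0.080. Among them Hspd1 was at 0.89 ± 0.29 and 0.50 ± 0.20 for genotype after carrier and averaged over injections, and Hsp90aa1 at 0.54 ± 0.17 averaged over injections. At the unadjusted p this was 1 of 11 higher after carrier, against 5.03% of all probe sets, and 2 of 11 averaged over injections, against 3.03%.

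Markers of several cell types moved between the same groups. In bulk tissue, fewer cells of a type and less RNA per cell cannot be told apart. The summed intensity of 6 horizontal basal cell markers, of which 3 were under the filter intensity on all arrays, was 2772 to 4095 on the Ccl3-/- carrier arrays, 1550 to 2151 on the Ccl3-/- CCL3 arrays, 1587 to 1848 on wild-type carrier and 1725 to 2133 on wild-type CCL3 arrays. The sum of 8 neutrophil markers was 121027 to 173139, 91687 to 110388, 86139 to 96906 and 92228 to 99674 in the same order. For 5 red cell markers it was 40595 to 47497, 85228 to 90727, 36325 to 58616 and 57225 to 58347. For 6 endothelial markers, 1 of them under the filter intensity on all arrays, it was 4348 to 4684, 3530 to 3690, 3410 to 4292 and 3990 to 4600. The mean log2 deviation of the neutrophil markers did not follow their sum, at 0.53 on the Ccl3-/- carrier and 0.61 on the Ccl3-/- CCL3 arrays. Icam1 is both a basal cell marker and a listed target. The 4 olfactory precursor markers summed to 4835 to 7746, 11174 to 11734, 9359 to 15859 and 10053 to 12564. Sums of 4 sustentacular markers were 66439 to 84411, 86742 to 101510, 36604 to 79408 and 85352 to 97859, and of 6 lymphocyte markers, 3 of them under the filter intensity on all arrays, 1250 to 1278, 1662 to 1808, 1755 to 2903 and 1558 to 1670. Basal, neutrophil and endothelial sums were thus higher, and red cell, precursor, sustentacular and lymphocyte sums lower, on the Ccl3-/- carrier arrays than on the Ccl3-/- CCL3 arrays without overlap. Single markers did not all follow the sums. After CCL3 on these arrays 2 of 4 sustentacular markers were higher and 2 lower (median 0.078). Of 8 neutrophil markers 4 were higher and 4 lower, and of 5 endothelial markers past the filter 1 was higher and 4 lower. All red cell, precursor, basal and lymphocyte markers past the filter followed their sums. Sums of the mature neuron, macrophage, fibroblast and bone, and skeletal muscle markers overlapped between these groups, those of 10 macrophage markers at 36712 to 43045 and 39786 to 42208, with 30949 to 41061 and 39310 to 39692 in wild type. The part of cell composition in the values of the immediate early genes was not tested.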

How the data were processed

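The deposited table holds intensity values on a linear scale, 1 per probe set and array, and how they were computed is not given in the sources used here. Per the deposited values the arrays were already scaled: the lowest trimmed mean of an array (2% off each end) was 99.97% of the highest, so they were not normalized again. Of 12488 probe sets, the platform annotation names 1 gene for 10855, several for 396 and none for 1237. Control probe sets (66) were left out of the tests.

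Values were analysed as log2(value + 102.3), where 102.3 is the 20th percentile of the table, so differences of dim genes are understated. Probe sets over 362.7 (40th percentile) on at least 2 arrays were tested (8150). limma 3.58.1 (R 4.3.3) fitted the 4 groups with 1 shared spread (4 residual degrees of freedom), an intensity trend and Benjamini-Hochberg adjustment over all probe sets. SE and adjusted p come from this fit, and 95% intervals are unadjusted.

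All probe sets of the 9 genes were named. From each list the genes under an unadjusted p of 0.05 were named, up to 3 per direction and comparison, with the brightest probe set of a gene. The 5 most like patterns were named for Fos and Egr1. The members and lists were chosen with earlier results of these data known. Replicate numbers did not pair the arrays: same-numbered arrays had deviations correlated at -0.16 to 0.18. The fit was also run on simulated data with independent noise on each array, which does not cover differences in array quality. Promoter sequences are from RefSeq (GRCm38.p6).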

Additional observations from a re-analysis of the deposited data

Results flagged for a closer look

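Egr1 went in opposite directions with CCL3 in the genotypes: every CCL3 array of the wild type lay above the wild-type carrier arrays, and every CCL3 array labelled Ccl3-/- lay below the carrier arrays so labelled. The same 4 groups also gave opposite genotype directions after carrier and after CCL3. The interaction, which tests both, was -1.30 ± 0.39 (SE, adjusted p = 0.908 in limma), so it did not pass over all probe sets. Jund also went opposite ways without overlap, lower after CCL3 in wild type and higher where the label is Ccl3-/-. Its interaction was 0.83 ± 0.43 (adjusted p = 0.908 in limma), 0.35 without wild-type carrier replicate 1 and 1.31 without wild-type carrier replicate 2. For CCL3, groups did not overlap for 38.9% of all probe sets on the Ccl3-/- arrays and 30.1% in wild type. The share of probe sets that did so in opposite directions was not counted.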

How the results depend on the processing

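Of 77 member differences (11 probe sets, 7 comparisons), 50 kept their sign with each array left out and with other scalings, pseudocounts or floor. These included all with an unadjusted p under 0.05 in limma. The rest of the 12 other settings (filter, intensity trend, replicate block, groups fitted, threshold) leave a log2 difference as it is. Its sign could not change there. The other 27 changed sign when an array was left out, and none of them was under that p. With each array left out in turn, the values crossed 0 for genotype after carrier in dimmer Junb (-1.21 to 0.34), Jund (-0.95 to 0.014), brighter Atf3 (-0.0078 to 0.47), dimmer Atf3 (-0.038 to 0.34), Fos (-0.69 to 0.26) and Dusp1 (-0.12 to 0.81). For genotype after CCL3 they crossed 0 in Jun (-0.58 to 0.18), brighter Junb (-0.31 to 0.17), brighter Atf3 (-0.29 to 0.065) and Dusp1 (-0.48 to 0.077). For CCL3 on the Ccl3-/- arrays they crossed 0 in brighter Junb (-0.032 to 0.46) and Jun (-0.12 to 0.65). For CCL3 in wild type they crossed 0 in Jun (-0.55 to 0.39), Ier2 (-0.38 to 0.29) and brighter Atf3 (-0.43 to 0.053). For the interaction they crossed 0 in Jun (-0.13 to 0.81), Fosb (-0.20 to 0.25), dimmer Junb (-0.78 to 0.77), dimmer Atf3 (-0.074 to 0.37) and Ier2 (-0.52 to 0.15). For genotype averaged over injections they crossed 0 in Jund (-0.29 to 0.19), brighter Atf3 (-0.060 to 0.18), Dusp1 (-0.16 to 0.30) and Egr1 (-0.15 to 0.066). For CCL3 averaged over genotypes they crossed 0 in Jund (-0.41 to 0.070), Ier2 (-0.30 to 0.028) and Jun (-0.14 to 0.33). Apart from these, the Fosb interaction was -0.019 with quantile normalization, -0.066 with cyclic loess and -0.059 with one median for all arrays, the dimmer Atf3 interaction -0.0010 with cyclic loess, the dimmer Junb interaction 0.053 with the pseudocount at the 40th percentile, and Ier2 for CCL3 in wild type 0.025 with one median. The count of probe sets past the threshold was 0 in limma in all comparisons and stayed 0 except as follows. With the replicate number as a block it was 1 for genotype after carrier (Pip), 1 for the genotype average (Ngp) and 1 for the CCL3 average (a probe set of several immunoglobulin genes), and the block changed no other call. At a threshold of 0.10 it was 1 for the genotype average (Med1), and with only the groups compared 1 for genotype after CCL3 (Wfdc18). With each array left out it ranged from 0 to 110 for genotype after carrier, 0 to 73 for CCL3 in wild type and 0 to 23 for the CCL3 average, the highest each without wild-type carrier replicate 2, and from 0 to 1 for genotype after CCL3, CCL3 on the Ccl3-/- arrays and the genotype average (Wfdc18, without a Ccl3-/- carrier array). At an unadjusted p of 0.05 the counts were 932, 121, 399, 350, 412, 483 and 369 for genotype after carrier, genotype after CCL3, CCL3 on the Ccl3-/- arrays, CCL3 in wild type, the interaction, and the genotype and CCL3 averages. The dimmer Junb probe set passed without wild-type carrier replicate 2 for CCL3 in wild type (-1.56, adjusted p = 0.0465 in limma) and for the CCL3 average (-1.18, adjusted p = 0.0490). A group left with 1 array is assumed to vary like the others. Members under an unadjusted p of 0.05 numbered 2 in the interaction with quantile normalization or the pseudocount at the 40th percentile, 1 for CCL3 in wild type with one median, and 1 for genotype after carrier with only the groups compared. Probe sets near or under the filter intensity limit what can be said of dim signals. Counts of list genes and of members under each setting were added after seeing the data, and 23 of them moved by over 1.5 times under settings other than leaving out an array. Among these, the early response list was at 7 for genotype after carrier with cyclic loess and at 2 with only the groups compared (against 4), at 5 in the interaction with quantile, cyclic loess or median scaling (against 3), at 2 for the CCL3 average with one median (against 4) and at 1 for genotype after CCL3 with only the groups compared (against 0), all at the unadjusted p.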
